A study of Mus musculus with 6 samples.

Results

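The olfactory receptor (OR) gene clusters of mouse chromosomes 2 and 7 were examined in CpG methylation data from mouse embryonic stem cells (mESCs) sorted by cell cycle phase. Their members were chosen by position alone, as every window of the methylation table that lay wholly inside chr2:85100000-90500000 or chr7:102400000-108900000 (GRCm38), without reference to any methylation value. This gave 1096 of 359192 windows, with 466 in the chromosome 2 cluster and 630 in the chromosome 7 cluster. The mESCs were of the E14TG2a line, a line of 129/Ola origin that carries no engineered allele named in the labels, grown with serum and LIF. They had been pulsed with the thymidine analogue EdU, fixed in ethanol, stained with propidium iodide for DNA content and sorted into G1 and G2/M fractions, so both groups shared every treatment and differed in phase. There were 3 biological replicates of each phase, and a G1 and a G2/M library of the same number are treated as matched here. All 6 libraries are taken as that line. The paper had E14-background mESC lines from different sources and does not say which was sorted.

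Methylation was read by enzymatic methyl-seq (EM-seq) from 125 ng of DNA per library. The method protects methylated and hydroxymethylated cytosines from deamination, so both marks are counted together. The table gives, for each library, the percentage of methylated CpG calls in windows of 100 CpG cytosines, which on both strands is about 50 CpG dinucleotides (median 50 in the clusters, 51 over all windows). The paper kept a window only if a minimum share of its CpGs was observed in every compared library. No coverage is given, so how many reads stood behind a percentage is unknown beyond that floor. The counting error of a window in a single library could not be given.

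OR genes encode the G protein-coupled receptors with which olfactory sensory neurons detect odorants. They form the largest gene family of the mouse, stand in tandem arrays, usually have their whole coding sequence in a single exon, and have promoters poor in CpG. Each sensory neuron expresses the allele of a single OR gene, and other cell types generally keep the family silent. The family is divided into class I receptors, related to those of fish and gathered in a single array on chromosome 7, and the larger class II. The chromosome 7 array is interrupted by the beta-globin genes, which encode the beta chains of haemoglobin in red cells, and by Trim genes, which encode ubiquitin ligases that include antiviral factors.

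The annotation bore out the name of the clusters. GENCODE vM21 placed 287 OR genes in the chromosome 2 interval, of which 227 were coding and 60 were pseudogenes, and 236 in the chromosome 7 interval, of which 197 were coding and 39 were pseudogenes. All 523 overlapped a member window, and the starts of 519 lay inside one. By the family names that RefSeq carries, 152 of the chromosome 7 genes were class I and 70 were class II, whereas on chromosome 2 the numbers were 2 and 251. The rest carried no such name. Of the members, 552 overlapped an OR gene, 224 overlapped a coding gene of another kind and no OR gene, 54 overlapped only other annotation and 266 overlapped no gene. The windows were long because CpGs were sparse there. Their median length was 11448.5 bp on chromosome 2 and 8880.5 bp on chromosome 7, against 5817 bp over all windows, and median GC content was 37.4% and 40.4% against 43.0%.

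The promoters show the contrast in CpG content that runs through the results. RefSeq promoters (GRCm38.p6, 250 bases before to 50 bases after the annotated start) were matched by symbol to 351 of the 522 distinct OR gene symbols. The 357 OR promoters inside the intervals held a median of 1 CG dinucleotide, 130 of them (36.4%) held none and the highest number was 7. Among the 54 promoters of other coding genes inside the intervals the median was 3 and the highest 49, and over all 32851 promoters the median was 7 and 43.5% held 10 or more. None of the 357 OR promoters reached 10, against 14 of the 54. At least 1 CG was found in 63.6% of the OR promoters and in 94.6% of all promoters. A few are printed here, 5′ to 3′ on the strand of the gene, with every CG in capitals. The first 4 belong to OR genes whose starts lie in the least and the most methylated windows of the windows described singly below that held a RefSeq OR promoter. Olfr153 (chr2:87531785-87532084, plus strand) lies in a window with a mean methylation of 42.2%, Olfr1506 (chr2:90224422-90224721, minus strand) in one with 67.9%, Olfr243 (chr7:103716346-103716645, plus strand) in one with 42.0% and Olfr504 (chr7:108565744-108566043, minus strand) in one with 81.1%.
Olfr153: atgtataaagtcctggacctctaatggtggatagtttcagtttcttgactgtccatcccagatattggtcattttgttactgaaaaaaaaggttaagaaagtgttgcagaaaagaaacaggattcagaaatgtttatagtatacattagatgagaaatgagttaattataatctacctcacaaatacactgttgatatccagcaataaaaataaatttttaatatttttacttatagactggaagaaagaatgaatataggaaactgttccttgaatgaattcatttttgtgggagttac
Olfr1506: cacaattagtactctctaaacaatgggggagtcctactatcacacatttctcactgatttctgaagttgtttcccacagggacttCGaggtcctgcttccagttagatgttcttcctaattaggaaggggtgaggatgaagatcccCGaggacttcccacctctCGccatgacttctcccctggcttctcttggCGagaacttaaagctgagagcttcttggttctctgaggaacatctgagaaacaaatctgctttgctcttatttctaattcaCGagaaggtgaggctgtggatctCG
Olfr243: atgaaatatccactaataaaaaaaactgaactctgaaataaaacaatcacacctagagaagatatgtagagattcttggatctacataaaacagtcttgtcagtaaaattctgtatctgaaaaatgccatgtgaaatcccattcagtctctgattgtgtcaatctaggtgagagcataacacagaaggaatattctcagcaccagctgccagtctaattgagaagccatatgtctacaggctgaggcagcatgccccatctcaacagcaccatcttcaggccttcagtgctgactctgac
Olfr504: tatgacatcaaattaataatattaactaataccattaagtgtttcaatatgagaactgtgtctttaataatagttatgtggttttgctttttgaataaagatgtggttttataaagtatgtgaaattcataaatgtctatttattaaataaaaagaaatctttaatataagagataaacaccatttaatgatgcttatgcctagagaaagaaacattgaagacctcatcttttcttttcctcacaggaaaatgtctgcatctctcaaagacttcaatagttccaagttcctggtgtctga

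The other 4 promoters belong to coding genes of other kinds whose promoters lie in the least methylated windows of the clusters. They are Rrm1 (chr7:102441445-102441744, plus strand, window mean 0.521%), which encodes the large subunit of ribonucleotide reductase, Ilk (chr7:105736340-105736639, plus strand, 0.548%), which encodes integrin-linked kinase, Rbmxl2 (chr7:107209195-107209494, plus strand, 1.73%), an RNA-binding protein gene of the male germ line, and Apbb1 (chr7:105581442-105581741, minus strand, 3.30%), which encodes an adaptor that binds the amyloid precursor protein.
Rrm1: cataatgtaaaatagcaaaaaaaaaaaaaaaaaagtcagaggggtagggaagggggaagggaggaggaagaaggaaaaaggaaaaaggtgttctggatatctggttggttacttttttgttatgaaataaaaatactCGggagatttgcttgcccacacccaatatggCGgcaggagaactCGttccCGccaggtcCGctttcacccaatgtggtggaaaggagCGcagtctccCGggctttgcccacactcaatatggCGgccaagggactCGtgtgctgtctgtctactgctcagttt
Ilk: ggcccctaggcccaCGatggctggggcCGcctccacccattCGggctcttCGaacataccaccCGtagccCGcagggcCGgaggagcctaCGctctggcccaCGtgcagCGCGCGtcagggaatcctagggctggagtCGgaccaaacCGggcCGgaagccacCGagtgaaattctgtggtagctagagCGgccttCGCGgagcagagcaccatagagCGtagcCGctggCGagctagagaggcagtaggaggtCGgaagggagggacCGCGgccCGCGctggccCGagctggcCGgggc
Rbmxl2: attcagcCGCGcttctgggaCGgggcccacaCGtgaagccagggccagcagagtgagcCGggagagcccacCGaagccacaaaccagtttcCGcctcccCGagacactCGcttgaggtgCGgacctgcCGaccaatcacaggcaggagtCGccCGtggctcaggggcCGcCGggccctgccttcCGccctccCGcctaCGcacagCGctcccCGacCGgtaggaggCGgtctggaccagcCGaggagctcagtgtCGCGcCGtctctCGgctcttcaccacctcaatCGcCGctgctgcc
Apbb1: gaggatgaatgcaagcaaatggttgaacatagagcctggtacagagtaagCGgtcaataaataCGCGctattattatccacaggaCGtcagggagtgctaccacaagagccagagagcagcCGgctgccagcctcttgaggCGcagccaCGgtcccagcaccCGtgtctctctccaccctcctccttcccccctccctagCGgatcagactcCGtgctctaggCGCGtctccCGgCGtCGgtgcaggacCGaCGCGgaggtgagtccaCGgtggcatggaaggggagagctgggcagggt

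The 4 OR promoters held 0, 6, 0 and 0 CG dinucleotides in the order printed, and the 4 others held 9, 29, 29 and 19. The promoters of Olfr243 and Olfr504 held none although their windows were at opposite ends of the OR range, so the percentages of those windows were measured on CpGs outside these 300 bases.

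Most windows of both clusters were methylated at an intermediate to high level, with 7 of 466 on chromosome 2 and 72 of 630 on chromosome 7 under 50%. The mean over the 1096 windows was 65.2%, 61.8% and 70.3% for replicates 1, 2 and 3 of G1 and 63.1%, 60.5% and 69.2% for those of G2/M, and library values are given in this order throughout. Replicate 3 was the highest and replicate 2 the lowest in both phases, and the phases overlapped fully. In the chromosome 2 cluster the values were 67.7%, 63.5% and 72.5% in the G1 libraries and 65.3%, 62.1% and 71.2% in the G2/M libraries. In the chromosome 7 cluster they were 63.4%, 60.5% and 68.8% in the G1 libraries and 61.5%, 59.4% and 67.8% in the G2/M libraries. The chromosome 2 cluster was thus the higher in all 6 libraries, by 3.51 ± 0.60 percentage points (SD over the means of the 3 replicate numbers). A two-sided exact sign-flip test over the 3 replicate numbers gave p = 0.25, the smallest it can give. With medians the difference was 0.97 percentage points, and the window medians were 66.5% on chromosome 2 and 66.7% on chromosome 7.

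**Figure D1:**
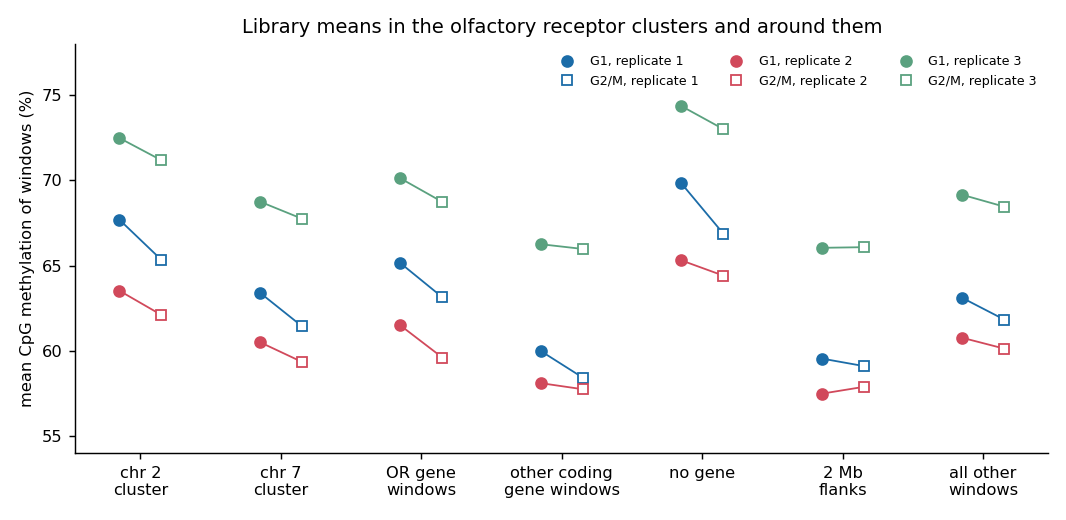
Mean CpG methylation in percent (vertical axis) of each library for 7 sets of windows (horizontal axis). Filled circles are G1, open squares are G2/M, colours are replicate numbers and lines join matched libraries. Replicate 3 lies highest in every set, and in both clusters G1 lies above its matched G2/M library in all 3 replicates, while the flanks have no common direction.

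The clusters differed in how widely their windows spread. On chromosome 2 the window means ran from 36.8% to 85.1% with an SD of 7.47 percentage points over windows, and 0 of 466 windows were under 20%. On chromosome 7 they ran from 0% to 86.2% with an SD of 13.7, and 17 of 630 (2.70%) were under 20%. Over all 359192 windows the SD was 15.6 and 3.50% were under 20%. The chromosome 2 cluster therefore held none of the nearly unmethylated windows that make up the lower tail of the genome. Such windows were also rare outside the clusters among windows longer than 9611 bp, with 0.0239% under 20%.

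The comparison of level with the rest of the genome depended on how windows were averaged. The cluster mean over all 6 libraries was 65.0% against 63.9% for the 358096 other windows, a difference of 1.12 ± 0.51 percentage points (SD over 3 replicate numbers, two-sided exact sign-flip test, p = 0.25) with the clusters higher in 6 of 6 libraries. The medians ran the other way. Median in place of mean gave -1.21 percentage points, weighting by window length -0.43 and restriction to the middle of the length range of the members -0.46. The 1355 windows within 2 Mb on either side of the intervals had a mean of 61.0%, 4.00 ± 0.73 percentage points under the clusters (SD over 3 replicate numbers, two-sided exact sign-flip test, p = 0.25), and 6.94% of them were under 20%. With medians this difference was -0.76 and with length weights -0.34 percentage points, so that it too changed sign.

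OR gene windows formed a narrow band. The 552 windows that overlapped an OR gene had library means of 65.2%, 61.5% and 70.1% in the G1 libraries and 63.2%, 59.6% and 68.7% in the G2/M libraries. Their window means ran from 36.8% to 85.1% with a median of 65.1% and an SD of 6.96 percentage points over windows. None was under 20%, and 24 (4.35%) were under 50%. The band was not particular to OR genes, whose windows had a median length of 12390.5 bp. Windows outside the clusters longer than 9611 bp had an SD of 7.11, with 0.0239% under 20% and 3.73% under 50%. The 224 windows over other coding genes had library means of 60.0%, 58.1% and 66.3% in the G1 libraries and 58.4%, 57.8% and 66.0% in the G2/M libraries, with a median of 68.7%, an SD of 19.4 and 16 windows under 20%. The mean of OR gene windows was higher by 3.62 ± 1.19 percentage points in 6 of 6 libraries (SD over 3 replicate numbers, two-sided exact sign-flip test, p = 0.25), whereas medians gave -2.27 and length weights -0.77. The 266 windows without a gene were the most methylated kind, with a mean of 69.0% and a median of 70.1%.

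**Figure D2:**
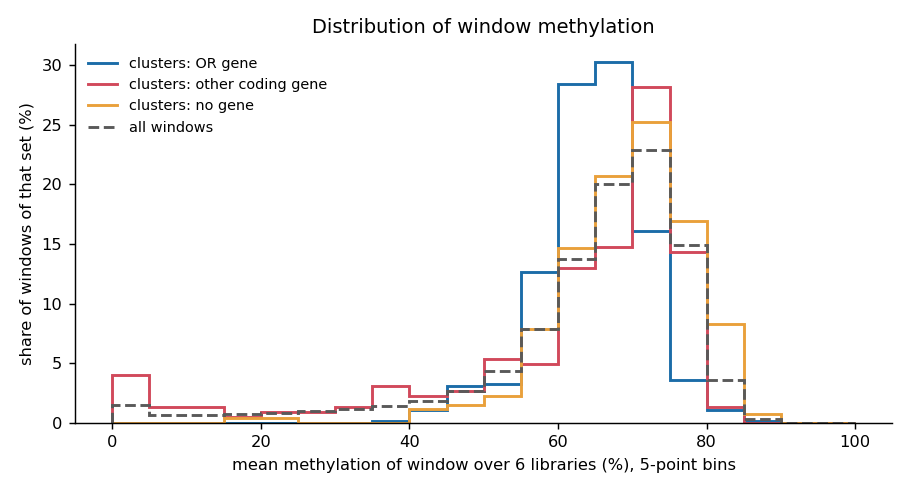
Share of windows in percent (vertical axis) by window mean methylation over 6 libraries in bins of 5 percentage points (horizontal axis), for the OR gene windows, other coding gene windows and gene-free windows of the clusters and for all windows (dashed). OR gene windows gather between 55% and 75% with none under 20%, while other coding gene windows have a second group near 0%.

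Repeats were spread unevenly over these kinds. A median of 38.1% of the bases of OR gene windows, 20.9% of other coding gene windows and 68.9% of gene-free windows was soft-masked as repeat in the reference. When the windows were divided by the masked share (up to 31.1%, up to 49.7% and above), OR gene windows had means of 65.0%, 64.6% and 64.7% and gene-free windows 62.5%, 67.9% and 70.2%. The level of OR gene windows was thus flat across the repeat classes, and that of gene-free windows was higher with more repeat. The highest windows on chromosome 7, chr7:103298534-103302001 at 86.2% and chr7:106370561-106373749 at 85.4%, held no gene and were masked over 98.7% and 99.3% of their bases, whereas the 2 highest on chromosome 2 were masked over 38.4% and 36.0%. How many reads mapped to such windows is not known, and the part of mapping in these values was not tested.

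OR gene windows of the clusters had the level of OR gene windows in the rest of the genome. The 1013 OR gene windows elsewhere had a mean of 64.7%, a median of 65.4% and an SD of 7.86 percentage points over windows, and 1 of them was under 20%. The difference between the sets was 0.0075 ± 0.50 percentage points (SD over 3 replicate numbers, two-sided exact sign-flip test, p = 1), with individual replicate numbers at 0.12, -0.54 and 0.44. It was negative with medians (-0.29), with overlap by window centre (-0.18) and without replicate 1 (-0.049) or replicate 3 (-0.21).

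Coding OR genes and OR pseudogenes differed little in these windows. The 494 windows over a coding OR gene had a mean of 64.6% and the 58 windows over OR pseudogenes only a mean of 65.5%. The 442 windows that held an OR gene start had a mean of 64.1%, and the 110 OR gene windows without a start 67.0%, with the start windows lower in 6 of 6 libraries. The start windows were also longer, with a median of 12706 bp against 10221.5 bp, and the part of length was not tested. Windows of class I genes on chromosome 7 (175 windows) had library means of 63.8%, 60.3% and 69.0% in the G1 libraries and 62.5%, 58.6% and 67.1% in the G2/M libraries. Those of class II genes on chromosome 7 (76 windows) were higher in each library, at 67.1%, 64.0% and 71.9% in the G1 libraries and 64.4%, 62.8% and 70.9% in the G2/M libraries. Class II windows of chromosome 2 (270 windows) had a six-library mean of 64.8%, between the class I mean of 63.5% and the class II mean of 66.8% on chromosome 7. No test was set for the classes.

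Each OR gene was then placed by the window that held its start. Over 519 genes these window means ran from 42.0% to 82.9% with a median of 63.8%, and the middle of the distribution, between the quartiles, was 60.2% to 68.1%. A single window held the starts of 2 or more OR genes in 67 cases, so these genes share a value. None of the 519 starts lay in a window under 20%, and 27 lay in a window under 50%. Of those 27, 3 were on chromosome 2 and 24 on chromosome 7, and all 24 were class I genes. Pseudogene starts had a median of 63.8% and coding starts 63.7%.

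**Figure D3:**
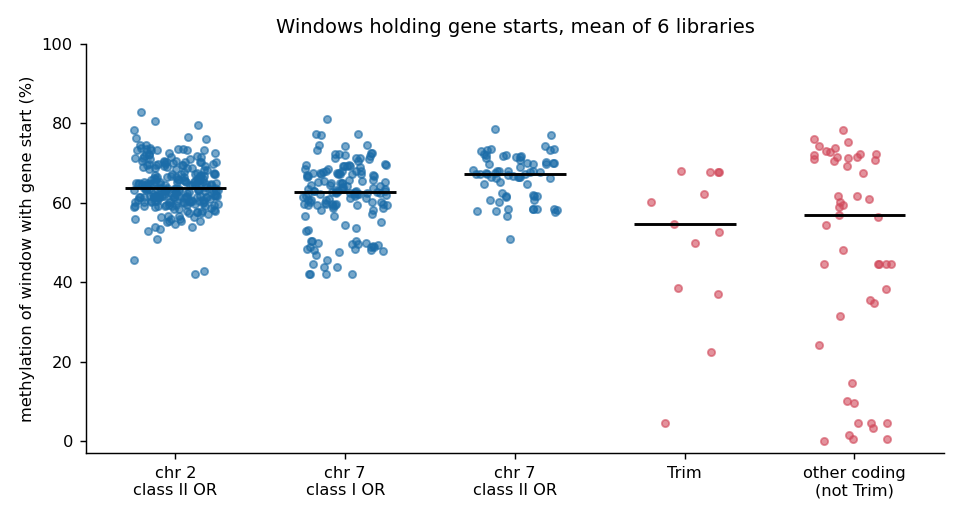
Methylation in percent of the window that holds each gene's start, as the mean of 6 libraries (vertical axis), for class II OR genes of chromosome 2, class I and class II OR genes of chromosome 7, Trim genes and other coding genes of both intervals. Points are genes and black lines medians. No OR gene lies under 42.0%, while the other coding genes spread from 0% to 78.3%. The highest of these is Gm13769, at whose start RefSeq places a promoter of Olfr1565.

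The chromosome 7 genes with low starts gathered around the beta-globin genes, a stretch picked out after the values were seen and given without a test. The 5 beta-globin genes Hbb-bt, Hbb-bs, Hbb-bh2, Hbb-bh1 and Hbb-y, of adult and embryonic type, lie between chr7:103812524 and chr7:103853216 and shared a single window of 56015 bp with 265 CpG dinucleotides. Its values were 45.2%, 36.2% and 51.3% in the G1 libraries and 44.1%, 42.3% and 48.9% in the G2/M libraries, at the low end of the cluster and far from unmethylated. Within 300 kb of these genes there were 42 OR genes, and the starts of 16 lay in windows under 50%. The 46 OR gene windows there had a mean of 61.1% and 12 of them (26.1%) were under 50%, whereas among the 129 class I windows of chromosome 7 farther away the mean was 64.4% and 7 (5.43%) were under 50%. The lower share of the stretch was seen in the lowest OR gene windows of chromosome 7. Olfr243 and Olfr628 (chr7:103712514-103737495) had 42.1%, 31.4% and 47.0% in the G1 libraries and 45.9%, 45.2% and 40.4% in the G2/M libraries. The neighbouring window with Olfr626-ps1 and Olfr260-ps1 (chr7:103686917-103712513) had a mean of 42.1%, and that with Olfr610 and Olfr611 (chr7:103506609-103524589) 43.9%. The phases overlapped in the window of Olfr243. They were also long, at 24982, 25597 and 17981 bp, and the median length of OR gene windows near the globin genes was 11261.5 bp.

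**Figure D4:**
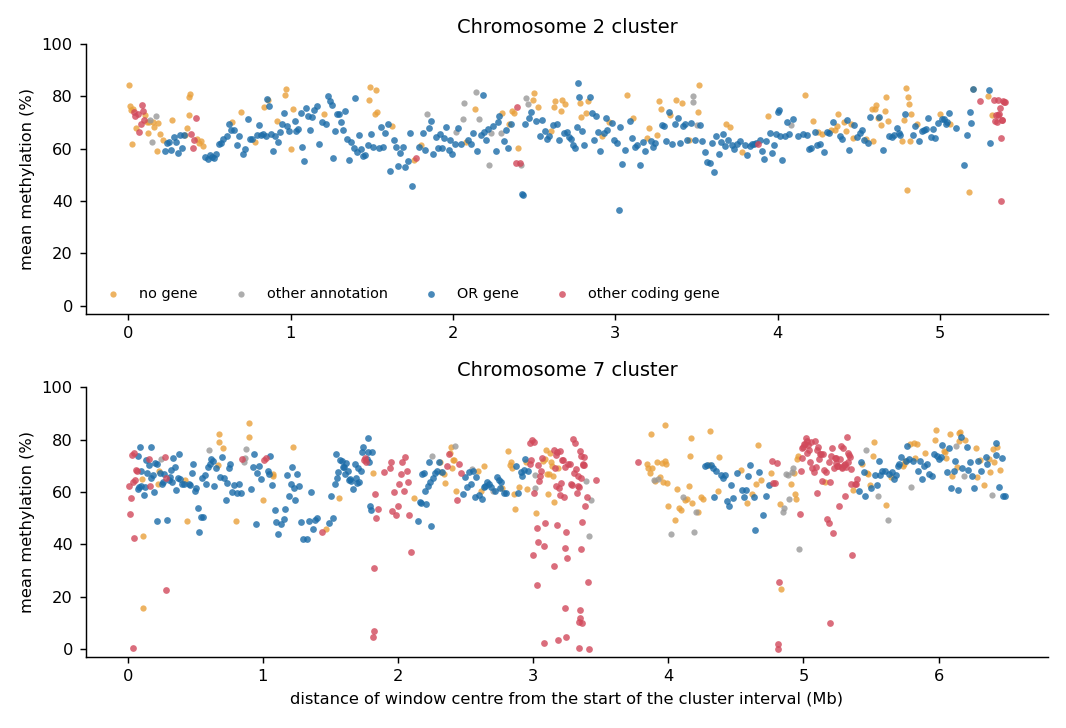
Mean methylation in percent over 6 libraries (vertical axis) of every member window by the distance of its centre from the start of the interval in Mb (horizontal axis), coloured by what the window overlaps. Chromosome 2 is a band without windows near 0%, and chromosome 7 has a dip of OR gene windows between 1 and 1.5 Mb and windows near 0% over other coding genes, many of them at 3 to 3.5 Mb.

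On chromosome 2 the extremes lay in several places, with the low windows of Olfr153 and Olfr1127-ps1 side by side. The least methylated window was chr2:88119778-88124432, which overlaps Olfr1166 and is masked as repeat over 80.6% of its length, with 36.7%, 33.0% and 37.2% in the G1 libraries and 36.6%, 39.7% and 37.3% in the G2/M libraries. Its replicate means, each over a G1 and a G2/M library, lay within 0.943 percentage points of each other, while single libraries ran from 33.0% to 39.7%. Next came chr2:90472539-90476505 inside Ptprj, a receptor-type tyrosine phosphatase gene, at 39.9%, and chr2:87526127-87534136 with the start of Olfr153, at 42.2%. The latter had 41.4%, 27.8% and 38.9% in the G1 libraries and 43.2%, 41.8% and 60.3% in the G2/M libraries, so that G1 was lower in 3 of 3 pairs and the lowest G2/M library stood above the highest G1 library (limma log2 difference -0.74 ± 0.43 SE, unadjusted p = 0.12, adjusted p = 1). The window before it, with the pseudogene Olfr1127-ps1, was at 42.8%. The most methylated windows of chromosome 2 were chr2:87870076-87873540, which overlaps Olfr1152, at 85.1% and the gene-free chr2:85105355-85108686 at 84.4%.

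The high end of the OR gene windows on chromosome 7 was held by Olfr504 (chr7:108559160-108567444), with 84.4%, 85.0% and 86.3% in the G1 libraries and 77.4%, 68.9% and 84.8% in the G2/M libraries, and by a window over Olfr648 (chr7:104178495-104181971), with a mean of 80.4%. On chromosome 2 the start of the pseudogene Olfr1273-ps lay in a window at 82.9%. The widest ranges between replicate means belonged to repeat-rich windows. On chromosome 2 this was chr2:86842547-86851763 with the start of Olfr1095, masked over 80.3% of its length, at 27.8%, 30.1% and 76.0% in the G1 libraries and 42.2%, 37.6% and 60.3% in the G2/M libraries. Replicate 3 was far above the others there in both phases, and the range was 34.3 percentage points against a median of 10.4 over the members. On chromosome 7 it was the gene-free window chr7:103295389-103298300, masked over 97.5%, with a range of 33.4 percentage points.

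The other coding genes inside the intervals supplied all starts under 20%. Of 68 such genes, 62 had a start in a member window. The start window was under 20% for 12 genes and under 50% for 26, against 0 and 27 of the 519 OR genes. Of the windows that held these starts, 49 overlapped no OR gene, and 10 of those were under 20%. Genes could share a window. All 12 genes were on chromosome 7. Mrpl17, a mitochondrial ribosomal protein gene, was listed at 0% in all 6 libraries (chr7:105810683-105811199), as was a second window over Rbmxl2 (chr7:107210307-107210614). Rrm1 had 0.855%, 0% and 0% in the G1 libraries and 2.27%, 0% and 0% in the G2/M libraries. Ilk had 1.16%, 0% and 1.32% in the G1 libraries and 0.806%, 0% and 0% in the G2/M libraries. In these windows the libraries were at or close to 0 in either phase. The start of Apbb1 lay in a window at 3.30%, that of Rrp8, a nucleolar methyltransferase gene, at 10.2%, that of Taf10, a TFIID subunit gene, at 14.8% and that of Ppfibp2, a liprin gene, at 9.78%. Arfip2, Timm10b and Gm45799 shared a window at 4.63%. The remaining windows under 20% held no start. They were a gene-free window (chr7:102510757-102513216) at 15.7%, a second window of Trim6 at 6.88% and windows inside Cavin3, Trim3, Ilk with Taf10, Dchs1 and Rbmxl2.

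Of the 13 Trim genes, all on chromosome 7 and all with starts in member windows, Trim6 alone lay under 20%. Its window (chr7:104216690-104219526) had 4.44%, 0% and 6.82% in the G1 libraries and 3.94%, 8.33% and 3.66% in the G2/M libraries. Trim6 encodes a ubiquitin ligase described in mESCs. Trim68 followed at 22.6%, Trim30d at 37.2% and Trim3 at 38.6%, and the others lay from 50.0% for Trim34a to 68.0% for Trim30a, with Trim5, Trim12a and Trim34b sharing a window at 67.7%. The range of the Trim genes thus ran from nearly unmethylated to the level of the OR genes. The starts of the 5 Usp17l genes, which encode deubiquitinating enzymes, lay from 56.9% for Usp17lb to 74.3% for Usp17le, within the OR range. On chromosome 2 none of the 9 other coding genes with a start in a window was under 50%. They ran from 54.3% for Pramel6 to 78.3% for Gm13769, and Aplnr, which encodes the apelin receptor, was at 73.9%. RefSeq promoters of Olfr1565, Olfr1096, Olfr1182 and Olfr1213 span the starts of Gm13769, Gm13723, Gm13757 and Gm13762, respectively. These Gm genes may thus be OR loci under another name, and among the others the highest was Pramel7 at 76.1%.

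The level varied along the clusters. In steps of 500 kb the cluster means ran from 55.5% to 71.3%. The lowest step was chr7:105400000-105899999, the stretch from Cckbr, the cholecystokinin B receptor gene, to Mrpl17. It held 83 windows and no OR gene, its windows ran from 0% to 80.2% and their SD was 21.8 percentage points. The second lowest, at 57.4%, was chr7:103400000-103899999, with the beta-globin genes and 27 OR gene windows of 34, in which no window was under 42.0%. The other step without OR gene windows, chr7:105900000-106399999, was at 69.8% with no window under 63.3%, so steps without OR genes lay near both ends. The highest was the last step of chromosome 7, chr7:108400000-108899999, with 26 OR gene windows of 49. The 2 low steps thus differed in kind, since the first mixed methylated with unmethylated windows and the second had none near 0%. Longer windows were less methylated on chromosome 2, with a Spearman coefficient of -0.50 over 466 windows, and less so on chromosome 7 at -0.22 over 630 windows. The coefficient was 0.0033 over the other windows, where the level rose and then fell with length. Divided at quintiles of length, from short to long, the other windows had medians of 61.9%, 70.6%, 71.0%, 69.4% and 64.7%. In the same classes the clusters had medians of 68.0%, 71.6%, 71.9%, 69.3% and 64.2%. Beyond the middle class the medians thus fell in both sets. The shortest class held 6.11% of the members. The coefficients are descriptions over windows that share libraries.

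G1 was compared with G2/M to see whether the clusters carried less methylation soon after replication than later. Over the 1096 windows G1 was higher in 3 of 3 matched pairs, by 2.14, 1.27 and 1.13 percentage points for replicates 1, 2 and 3. Averaged over the libraries of a phase, G1 had 65.8% ± 4.30 (SD, n = 3) and G2/M had 64.3% ± 4.46 (SD, n = 3). These means lay 1.51 percentage points apart, less than the SD of either phase (two-sided exact permutation test over 20 labelings, p = 0.7 where the smallest possible is 0.10). That SD holds the differences in level between replicate numbers, whereas the matched differences had an SD of 0.54 (n = 3). In the chromosome 2 cluster the matched differences were 2.36, 1.43 and 1.31 percentage points (p = 0.7 by the same exact permutation test), and in the chromosome 7 cluster 1.97, 1.16 and 1.00 (p = 0.6). Blocked on the replicate number, the exact sign-flip test gave p = 0.25 in each, the smallest that 3 pairs allow. The unmatched difference changed sign when G1 replicate 3 was left out (-0.76) or G2/M replicate 2 (-0.36), the libraries of the highest G1 and the lowest G2/M mean. Leaving out a single library also leaves its partner without a match.

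The matched differences in the clusters were larger than those of the rest of the genome in all 3 replicates. The other 358096 windows had differences of 1.28, 0.638 and 0.697 percentage points, so the clusters exceeded them by 0.862, 0.635 and 0.436, a mean of 0.644 ± 0.21 (SD, n = 3 replicates, two-sided exact permutation test, p = 0.3, exact sign-flip test, p = 0.25). The flanks had 0.441, -0.401 and -0.0368 and thus no common direction. The clusters were also richer in long windows. Of the members, 583 (53.2%) belonged to the longest length class of all windows (length divided at quintiles, over 9611 bp). Within it the matched differences were 2.53, 1.73 and 1.42 in the clusters and 2.43, 1.87 and 1.46 in the other windows, so that the clusters were higher in 1 of 3 replicates only, and the six-library means were 63.8% and 64.1%. Over all lengths the excess of the clusters was 0.305 with windows weighted by length and 0.537 within the middle of the length range of the members. In the shortest length class the differences were 1.73, 1.17 and -1.21 in the clusters and 0.588, -0.192 and 0.161 elsewhere. From the second to the fourth class they were 3.25, -0.449 and 0.895 against 0.664, -0.00127 and 0.367, then 1.59, 1.42 and 0.800 against 1.04, 0.425 and 0.542, and then 1.31, 0.566 and 1.36 against 1.67, 1.09 and 0.967. The clusters were higher in all 3 replicates only in the middle class. In the longest class the clusters and the other windows differed by less than the spread between replicates.

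By kind, OR gene windows had matched differences of 2.01, 1.89 and 1.39 percentage points, gene-free windows 2.96, 0.899 and 1.35, and other coding gene windows 1.56, 0.359 and 0.280. The OR gene windows exceeded the other coding gene windows by 0.447, 1.53 and 1.11 in the 3 replicates, a mean of 1.03 ± 0.55 (SD, n = 3 replicates, two-sided exact permutation test, p = 0.4, exact sign-flip test, p = 0.25). OR gene windows elsewhere in the genome had 1.93, 0.873 and 1.30. Class I windows of chromosome 7 had 1.24, 1.70 and 1.91, class II windows there 2.63, 1.23 and 1.02, and class II windows of chromosome 2 had 2.24, 1.98 and 1.32. G1 was the higher in every replicate of each OR class. Near the beta-globin genes the OR gene windows had 1.63, 1.71 and 5.07, and the class I windows farther away had 1.10, 1.69 and 0.779. Divided by masked share, OR gene windows had 1.68, 1.96 and 0.721 in the low class, 2.45, 2.80 and 1.70 in the middle class and 1.55, 0.0860 and 1.57 in the high class, with G1 higher in each. The 8 windows over Usp17l genes had 6.45, 6.49 and -0.415, so that replicates disagreed in direction there.

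Along the clusters, 16 of the 24 steps of 500 kb had all 3 matched differences above 0 and none had all 3 below. Over 5020 such steps of the genome with at least 17 windows, the fewest of any cluster step, the shares were 53.6% and 5.12%, so the 66.7% of the clusters stood against a background in which most steps met the rule. The step means ran from -0.490 to 4.36 percentage points. The highest was chr2:88100000-88599999, with 28 OR gene windows of 41, where the matched differences were 4.62, 4.65 and 3.81. In the genome 13 steps had a mean at least as high. On chromosome 7 the highest was chr7:103900000-104399999, with 2.53, 2.84 and 4.18. The gene-rich step chr7:105400000-105899999, without OR genes, had 2.06, -0.456 and -1.49 and no common direction. The steps were ranked after their values were seen and were not tested singly.

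**Figure D5:**
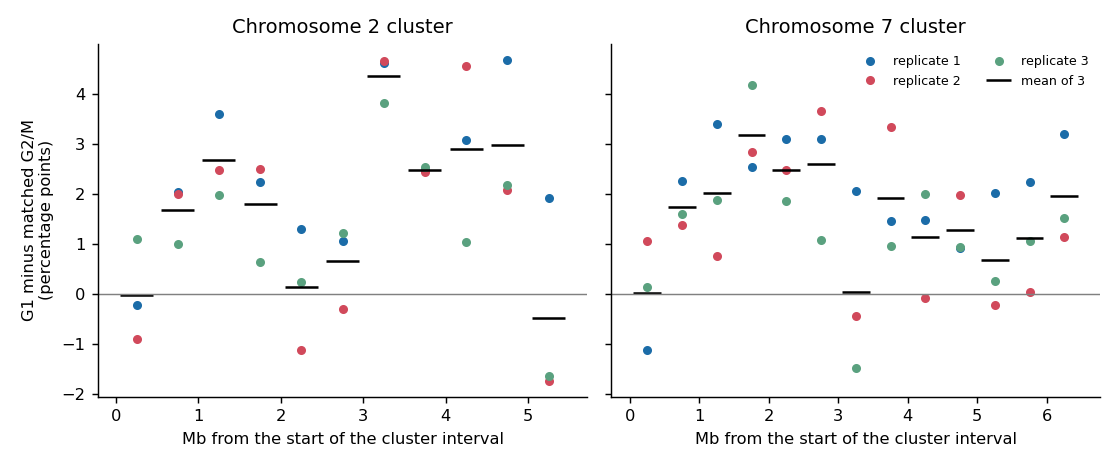
Matched difference G1 minus G2/M in percentage points (vertical axis) in steps of 500 kb from the start of each interval (horizontal axis, Mb). Coloured points are the 3 replicates and bars their mean. In 16 of 24 steps (66.7%, against 53.6% of the steps of the genome) all 3 points lie above 0, and the highest step, at 3 to 3.5 Mb of chromosome 2, has a mean of 4.36.

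Single windows did not pass a test across the genome. limma on log2((percentage + 1)/(100 - percentage + 1)) adjusted by Benjamini-Hochberg across the 359192 windows, called 0 of the 1096 members at an adjusted p under 0.05, against 0.00223% of all windows. At an unadjusted p under 0.05, 13 members (1.19%) were higher in G1 against a background of 1.36%, and 4 (0.365%) were higher in G2/M against 0.75%. Of the members, 214 (19.5%) had all 3 matched differences above 0, against 16.3% of all windows, and 90 (8.21%) all 3 below 0, against 9.74%. The 3 G1 values all exceeded the 3 G2/M values in 59 members (5.38%, background 4.12%) and all fell short of them in 13 (1.19%, background 1.98%). The shares of the members lay near those of all windows by each rule.

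The largest consistent differences were those of a few windows, chosen for their size. On chromosome 2 the start window of Lrrc55 (chr2:85196189-85199838), which encodes an auxiliary subunit of BK potassium channels, had 76.1%, 77.5% and 82.2% in the G1 libraries and 60.0%, 64.6% and 66.3% in the G2/M libraries. The phases did not overlap, G1 being higher by 15.0 percentage points (limma log2 difference 1.05 ± 0.31 SE, unadjusted p = 0.0085, adjusted p = 1). It was also the member with the smallest p of the cluster in that direction. The gene-free window chr2:88614331-88617208, masked as repeat over 99.5% of its length, followed with 14.8 percentage points.

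In the other direction, the window with the start of Olfr1506 (chr2:90163786-90230920) had 55.4%, 60.3% and 67.5% in the G1 libraries and 74.9%, 69.2% and 80.0% in the G2/M libraries, so that G2/M was higher throughout and the difference G1 minus G2/M was -13.7 percentage points (limma log2 difference -0.90 ± 0.35 SE, unadjusted p = 0.031, adjusted p = 1). This window spans 67135 bp and 656 CpG dinucleotides, far more than the usual 50. Windows with more than 100 made up 46 of the members (4.20%) and 2.36% of all windows. In these, most CpG cytosines of the span were not among those counted, so the percentage may not describe a gene start inside it. The next, chr2:85558315-85565125, held no gene and had a difference of -13.4 percentage points.

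On chromosome 7 the largest was a window over Olfr643 with the start of Olfr641 (chr7:104034021-104040711), with 67.0%, 77.6% and 77.4% in the G1 libraries and 40.7%, 57.4% and 66.2% in the G2/M libraries. All G1 values exceeded all G2/M values, and the difference was 19.2 percentage points (limma log2 difference 1.21 ± 0.44 SE, unadjusted p = 0.023, adjusted p = 1). A gene-free, repeat-rich window, chr7:103195085-103203454, followed with 19.1 percentage points. In the opposite direction the window with the start of Olfr651 (chr7:104537362-104553700) had 36.6%, 32.0% and 54.7% in the G1 libraries and 57.3%, 48.4% and 64.3% in the G2/M libraries, where G1 replicate 3 overlapped the G2/M range (difference -15.6 percentage points, unadjusted p = 0.075, adjusted p = 1 by limma). A window inside Cckbr (chr7:105434171-105435331) had a difference of -13.8 percentage points. OR genes thus stood at both ends, and neither end passed the adjusted test.

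The smallest p on chromosome 7 belonged to the window shared by the starts of Arfip2, which encodes a partner of Rac and Arf GTPases, Timm10b, a mitochondrial import protein gene, and Gm45799 (chr7:105639414-105640848). It had 7.81%, 7.14% and 6.94% in the G1 libraries and 0%, 0% and 5.88% in the G2/M libraries, a difference of 5.34 percentage points (limma log2 difference 2.20 ± 0.66 SE, unadjusted p = 0.0092, adjusted p = 1). Without G2/M replicate 3 its adjusted p was 0.0095, the lone call among the members in any limma setting. With a G1 level near 7% and no coverage given, the number of reads behind these values is not known. For higher G2/M the smallest p was in a window of Ovch2, an ovochymase gene (chr7:107772955-107783304), with 50.8%, 59.4% and 57.8% in the G1 libraries and 68.5%, 67.3% and 73.7% in the G2/M libraries (unadjusted p = 0.028, adjusted p = 1 by limma).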

How the data were processed

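EM-seq data of 3 G1 and 3 G2/M libraries of mESCs were analysed. The authors demultiplexed with bcl2fastq 2.19.1, checked reads with FastQC 0.11.7 and MultiQC 1.7 and trimmed with Trim Galore 0.6.4. They aligned to GRCm38 with Bismark 0.22.1 and Bowtie2, deduplicated, and dropped poorly mapped reads and outlier regions. They deposited the percent methylation of each 100-CpG window in which a minimum share of the CpGs was observed in all libraries. Coverage is not given in the table, so depth is unknown. No normalization between libraries is stated, and all 6 percentage columns were used. What the mapping filter removed from near-identical OR sequence is not known.

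The members were set by position, and the lists of windows and genes were chosen with earlier results of these data known. Windows were assigned to genes by an overlap of 1 bp with GENCODE vM21, OR classes came from RefSeq family names (MOR family up to 42 as class I), and GC content, CpGs and soft-masked bases from the GRCm38 genome. OR genes were identified by symbol, so any OR loci listed under Gm names counted as other coding genes. Means over windows were taken per library. For phases the test was a two-sided exact permutation over 20 labelings, and for levels of window sets a two-sided exact sign-flip over the 3 replicate numbers. Windows were fitted with limma 3.58.1 in R 4.3.3 (lmFit, eBayes with trend), with Benjamini-Hochberg adjustment over all windows, after the step was tested on simulated data. Same-numbered libraries were taken as matched because the methods speak of matched replicates and of both populations sorted together. The correlation of their deviations from the group means over all windows was 0.0274 to 0.0549, against -0.0299 to -0.00144 for other numbers. Over the member windows it was 0.0187, 0.0161 and 0.0915 for replicates 1, 2 and 3, against -0.0488 to 0.0266 for other numbers. The ranges overlapped there, so the member windows alone did not set matched libraries apart. Within a phase the deviations of the 3 libraries cancel out, so positive values for matched numbers make the others negative on average. The values for other numbers are therefore not separate support for the matching, and all these coefficients were small.

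Windows described singly were, per cluster, the 3 lowest and 2 highest means, the 2 largest phase differences per direction with all 3 pairs agreeing in sign, the smallest limma p per direction and the widest range between replicate means. Genes named were those these windows overlap, the beta-globin and Trim genes and other coding genes with a start window under 20%. The extreme windows among OR gene windows, the beta-globin surroundings, the 500-kb steps singled out and the genes of chromosome 2 were added after values were seen. The software was pandas 2.3.3, scipy 1.17.1 and numpy 2.4.6 under Python 3.11.15, with matplotlib 3.10.9 for plots.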

Additional observations from a re-analysis of the deposited data

How the results depend on the processing

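The differences in level depended on how windows were averaged. For the clusters minus all other windows, medians gave -1.21, length weights -0.43 and the middle 90 percent of member lengths -0.46 percentage points. For OR gene minus other coding gene windows, medians gave -2.27 and length weights -0.77. For the clusters minus the flanks, medians gave -0.76 and length weights -0.34. For OR gene windows of the clusters minus those elsewhere, medians gave -0.29 and overlap by window centre -0.18. The cause was not tested. With all 6 libraries as units, which ignores their matching, the exact sign-flip p was 0.03125 for the clusters minus the rest (1.12), chromosome 2 minus chromosome 7 (3.51), OR gene minus other coding gene windows (3.62) and the clusters minus the flanks (4.00).

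Leaving out each library in turn gave G1 minus G2/M values from -0.76 to 3.98 in the clusters, -0.59 to 4.18 on chromosome 2 and -0.88 to 3.83 on chromosome 7. The negative values came when G1 replicate 3 was left out (-0.76, -0.59 and -0.88) or G2/M replicate 2 (-0.36, -0.35 and -0.37). Each such set leaves a library without its match. Relative to the rest the range was 0.31 to 0.87, with 0.31 also under length weights, and for OR gene minus other coding gene windows 0.40 to 1.83. Leaving out each replicate number gave 0.84 to 1.33 for the clusters minus the rest in level, 3.23 to 3.83 for chromosome 2 minus chromosome 7, 2.97 to 4.12 for OR gene minus other coding gene windows, 3.59 to 4.27 for the clusters minus the flanks, and -0.21 to 0.28 for OR gene windows minus those elsewhere, which was -0.049 without replicate 1 and -0.21 without replicate 3.

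With the replicate block, the phase difference of the clusters stayed 1.51 with p = 0.25 (exact sign-flip test), and it was 0.44 with libraries centred on their median. limma called 0 members in every setting but 1, which was without G2/M replicate 3, and leaving out each library gave 0 to 1. Members with an unadjusted p under 0.05 numbered 17, but 38 with centred libraries, 43 with the replicate block, 46 with the block on the percent scale, a setting chosen after seeing the data, and 10 to 34 without single libraries (10 without G1 replicate 1, 28 without G1 replicate 2, 34 when G2/M replicate 3 was left out). The shares of members, 1.55% and then 3.47%, 3.92% and 4.20% in the first 3 alternatives, stood against 2.11%, 4.90%, 4.83% and 5.02% of all windows. A coverage minimum could not be tried, since no coverage is given.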
